A study of Mus musculus with 12 samples.

Results

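Transporters that carry bile salts, organic ions, sterols and drug conjugates into and out of cells were examined in mouse liver with and without dioxin and with and without the gene Tiparp. The set was defined by gene symbol. It holds every gene of the Slco, Slc10a, Slc22a, Slc47a, Abcb, Abcc and Abcg families that had a probe set of its own on the array, which gave 55 of 14860 genes, each with 1 probe set. On the uptake side stand 33 of them (Slco, Slc10a and Slc22a) and on the export side 22 (Abcb, Abcc, Abcg and Slc47a), a division by family that does not hold for each single carrier. The family members Slc22a7, Abcb4 and Abcc4, which also belong to the hepatocyte membrane, were not analysed here. For Abcb4 the annotated probe set named another gene as well, as did 3 more probe sets that carry a symbol of these families.

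Each of 12 livers was hybridised to an Affymetrix Mouse Exon array. Wild-type (Tiparp +/+) and knockout (Tiparp -/-) mice on a mixed C57BL/6;129Sv background, 8 weeks old, were given corn oil, the vehicle, or the dioxin TCDD at 30 µg per kg of body weight into the peritoneal cavity. All 4 groups had 3 arrays labelled as biological replicates. TCDD is a persistent ligand of the aryl hydrocarbon receptor, and Tiparp encodes a mono-ADP-ribosyltransferase that this receptor induces and that restrains it in turn. The design text speaks of Tiparp-/- mice without naming a promoter or a Cre line, and gives neither the interval between dose and collection nor the sex of the mice. Values are log2 RMA expression, so a difference of 1 is a change of 2-fold.

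The hepatocyte is polarised. At its sinusoidal membrane, facing the blood, the sodium-dependent carrier Slc10a1 and the organic anion carriers of the Slco family take up bile salts, bilirubin, hormones and drugs, while Slc22a carriers take up organic cations, anions and carnitine. At the canalicular membrane ATP-driven pumps secrete bile: Abcb11 bile salts, Abcc2 conjugated bilirubin, Abcg5 with Abcg8 sterols, Abcb1a and Abcb1b lipophilic drugs, Abcg2 sulphated conjugates, with the exchanger Slc47a1 for organic cations. Abcc3 and its relatives at the sinusoidal membrane can return conjugates to the blood when flow of bile is impaired.

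The labels were checked first on Tiparp and on Cyp1a1, the cytochrome P450 gene most typical of the dioxin response. Tiparp read 7.42, 7.41 and 7.33 in wild-type liver with corn oil and 9.91, 10.82 and 10.84 with TCDD, against 7.10, 6.20 and 5.58 and then 6.82, 6.70 and 6.91 in the knockout. Cyp1a1 was at 13.19 to 13.34 on all 6 TCDD arrays and at 5.47 to 6.85 with corn oil in the wild-type. In knockout corn oil it read 8.07 to 8.84, higher than in the wild-type by 2.02 (log2; limma adjusted p = 0.0278). Of 4 measured hepatocyte markers, 0 were called, and on all arrays albumin lay between 13.88 and 13.97 and Ttr between 13.75 and 13.90. Ttc36 ran from 11.67 to 12.29. Hnf4a read 12.29 to 12.40 in wild-type corn oil and higher, 12.51 to 12.90, on all other arrays. The 4 kidney markers, whose tissue shares many of these carriers, averaged 5.81 to 5.99. The Y-linked gene Eif2s3y read 9.32 to 9.73 on all arrays, a measure given because Slco1a1 and Slco1a4 are sex-biased in mouse liver. Before any result, the 3 knockout corn oil livers stood apart from the other 9 along the first principal component (23.5% of the variance), replicates 1 and 2 with scores of 45.8 and 36.7 and replicate 3 with 17.2, against -30.5 to 7.99 elsewhere.

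The classical hepatocyte carriers headed the set. Slc10a1 had the highest mean over all arrays, 13.06, followed by Abcc2 (11.96), Slco1a1 (11.93), Abcb11 (11.77) and Slco1b2 (11.70). Gene-to-gene order is only approximate, since probe sets differ in brightness. Of the 55 genes, 30 lay above the median of all probe sets (6.94) and 20 above the upper quartile (8.61). The lowest were Slco6b1 (2.88), Slco1a6 (2.97) and Slc22a19 (3.75).

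TCDD left most of these genes within narrow limits, and in neither genotype was the set called more often than the array as a whole. A call is an adjusted p below 0.05 in limma, with Benjamini-Hochberg adjustment over all 23332 probe sets. In wild-type liver 0 of the 55 were called, while 0.116% of all probe sets were, each of them higher. Those with an unadjusted p under 0.05 were 4 (7.27%), all higher (Abcb8, Abcg5, Abcg8 and Slc22a5), against 7.28% of all probe sets. In knockout liver 2 of 55 (3.64%) were called, both lower, against 5.58% of all probe sets (2.21% higher and 3.37% lower). Before adjustment 4 genes had p under 0.05 and higher values and 5 had lower ones (16.4%), against 22.1% of all probe sets. The called genes were Abcc1 on the export side and Slc10a7 in the uptake families. The median log2 change of the set was 0.00 for wild-type and 0.06 for knockout liver, and over all probe sets it was 0.01 and -0.05. Between genotypes 0 of 55 were called with corn oil, where 1.96% of all probe sets were (1.23% higher and 0.724% lower in the knockout). With TCDD 0 of 55 were called, against 0.24% (0.223% higher and 0.0171% lower). For the interaction, the difference between the TCDD effects, 0 of 55 were called, against 0.159% (0.107% higher and 0.0514% lower). Without adjustment, at p under 0.05 in limma, 5 genes were higher and 9 lower with corn oil (25.5%), where 2736 probe sets were higher and 1769 lower (19.3%). With TCDD 2 were higher and 2 lower (7.27%), against 1000 and 1774 probe sets (11.9%), and for the interaction 1 was higher and 3 lower (7.27%), against 1083 and 2363 (14.8%).

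The absence of calls has a measurable width. For 47 of the 55 genes the 95% interval of the TCDD change in the wild-type lay inside a 2-fold change either way, and in the knockout this held for 48. The wild-type intervals that reached further were those of Abcb1b, Abcg5, Abcg8, Slc10a2, Slc10a6, Slc22a13b, Slc22a5 and Slco1a4. These are intervals of single genes, without adjustment for their number. The genes inside include dim ones near the floor, such as Slco6b1 (mean 2.88) and Slco1a6 (2.97). For such genes a narrow interval does not bound a change of the RNA.

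**Figure D1:**
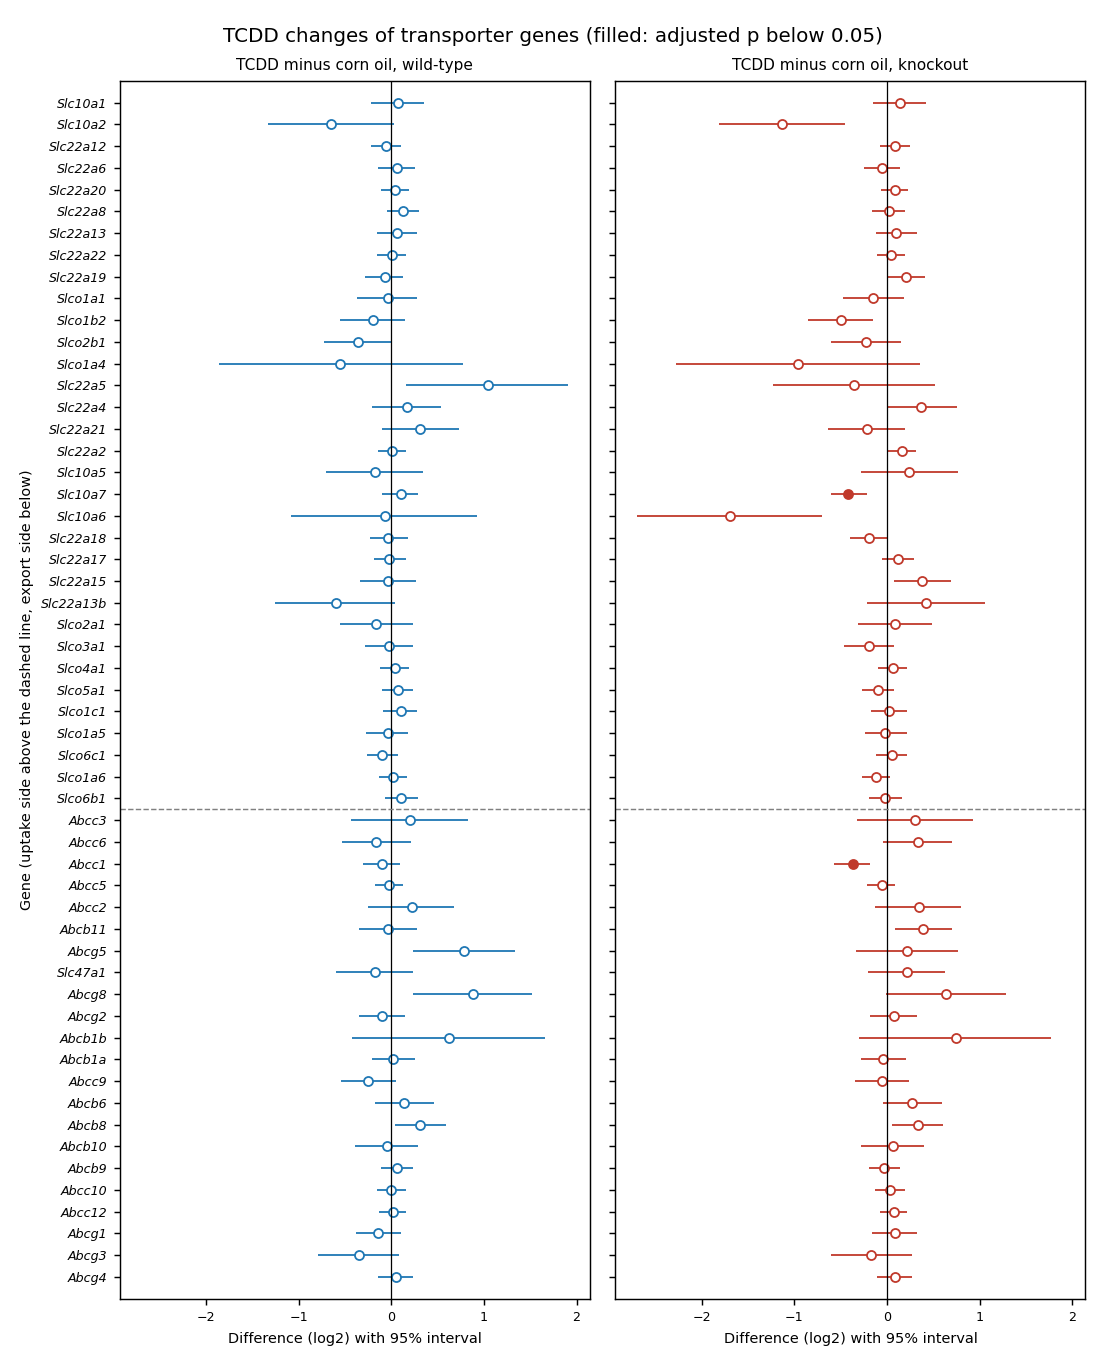
Log2 change under TCDD (x axis) of the 55 transporter genes (y axis) in wild-type and knockout liver, with 95% intervals of limma from 12 arrays. Filled points passed an adjusted p of 0.05, which were Slc10a7 (-0.42) and Abcc1 (-0.37) in the knockout and 0 genes in the wild-type.

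Slc10a7 belongs to the bile salt carrier family by sequence but is not known to carry bile salts, and is linked to calcium handling and to glycosaminoglycan synthesis. It read 8.69, 8.69 and 8.82 in wild-type corn oil, 8.66, 8.95 and 8.88 in wild-type TCDD, 9.14, 9.09 and 9.04 in knockout corn oil, and 8.61, 8.66 and 8.75 in knockout TCDD. The knockout corn oil arrays were thus the highest of all and the other 3 groups overlapped. In the knockout Slc10a7 fell by 0.42 ± 0.09 on the log2 scale (SE, n = 3 against 3; limma adjusted p = 0.0256), a factor of 1.33. The wild-type value was 0.10 ± 0.09 (SE; adjusted p = 0.892), and the interaction of -0.51 ± 0.12 (SE) did not pass (adjusted p = 0.105).

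Abcc1 exports glutathione conjugates and leukotrienes across the basolateral membrane of many cells and is weak in healthy hepatocytes. It read 6.76, 6.71 and 6.87 in wild-type corn oil, 6.63, 6.64 and 6.76 in wild-type TCDD, 6.97, 7.20 and 6.90 in knockout corn oil, and 6.63, 6.65 and 6.67 in knockout TCDD. Again every knockout corn oil array stood above the other 9. Abcc1 fell by 0.37 ± 0.09 in the knockout (log2, SE; adjusted p = 0.0386), and its wild-type value was -0.10 ± 0.09 (SE; adjusted p = 0.879).

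Both calls changed with the control group and were lost in most fits that left out 1 array. Knockout TCDD livers set against wild-type corn oil livers, an alternative added once the data had been seen, gave -0.06 for Slc10a7 (adjusted p = 0.781) and -0.13 for Abcc1 (adjusted p = 0.508). Each call was lost without knockout corn oil replicate 1 or 2 and without any of the knockout TCDD arrays, with adjusted p-values up to 0.0837 for Slc10a7 and 0.113 for Abcc1, while the changes ranged from -0.46 to -0.39 and from -0.43 to -0.28 over the 6 fits that left out 1 array. It was kept without knockout corn oil replicate 3. In the fits that lost it, calls among all probe sets fell as well, from 1303 to between 435 and 1156. In the same gene order, quantile normalization ended both calls (changes of -0.32 and -0.33; adjusted p = 0.0506 and 0.0575). A fit of the 6 knockout arrays alone, which called 184 of all probe sets, ended them too, with the changes as before (adjusted p = 0.0945 and 0.161). Median centring ended the call of Abcc1 (-0.32; adjusted p = 0.0624).

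Slc10a6, a carrier of sulphated steroids, showed the same shape on a larger scale. It read 8.26, 7.29 and 5.83 in knockout corn oil, while the other 9 arrays lay between 5.15 and 5.53. All 3 knockout corn oil arrays were therefore above the rest, but replicate 3 by only a little. The TCDD change in the knockout was -1.70 ± 0.45 (SE; adjusted p = 0.0567) and the genotype difference with corn oil was 1.76 ± 0.45 (SE; adjusted p = 0.0759), neither of them called. Without knockout corn oil replicate 3 the values were -2.35 (adjusted p = 0.000985) and 2.41 (adjusted p = 0.0026), and the interaction of -2.27 was called as well (adjusted p = 0.0176). Replicate 3 was the array of its group nearest to the other groups. Leaving it out had to enlarge these differences, so the calls of that fit add no support.

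In all, 4 of the 55 genes (Abcc1, Slc10a6, Slc10a7 and Slco1a6) had every knockout corn oil array above the other 9, a pattern held by 4.2% of all probe sets. No transporter gene had every knockout corn oil array below the other 9 (1.68% of all probe sets), every wild-type corn oil array below the rest (1.26%), or all arrays of either TCDD group above the rest (0.437% for the wild-type and 1.98% for the knockout). Averages of markers of some other cell types differed in the same 3 livers. The 7 endothelial markers averaged 9.59 to 9.71 there, against 9.34 to 9.55 in wild-type corn oil, 9.04 to 9.13 in wild-type TCDD and 9.03 to 9.25 in knockout TCDD. Between genotypes with corn oil, 4 of the 7 differences were above 0 and 3 below, from -0.17 (Kdr) to 0.84 (Lyve1). None of them was called, against 1.96% of all probe sets. Under TCDD 4 of these 7 (Pecam1, Stab1, Stab2 and Tek, from -0.59 to -0.50) were called lower in the knockout, against 3.37% of all probe sets. In the wild-type 0 were called, as for all probe sets in that direction, and all 7 values were below 0 in both genotypes. The mean of the 3 measured neutrophil markers was 6.05 to 6.60 there, against 5.32 to 5.61 in wild-type corn oil, 4.99 to 5.84 in wild-type TCDD and 5.37 to 5.98 in knockout TCDD. The 7 Kupffer cell and macrophage markers averaged 9.29 to 9.62 there, against 8.74 to 9.41, 8.41 to 9.18 and 9.09 to 9.25. Of these 7, 1 (Marco) was called higher in the knockout with corn oil, against 1.23% of all probe sets. Of 10 measured clock genes, 1 was called lower under TCDD in the knockout (Per1, -1.81), against 3.37% of all probe sets. With corn oil 0 were called between genotypes. The arrays did not overlap there for 70% of the clock genes, 3 higher and 4 lower in the knockout, against 21.8% of all probe sets. Arntl differed by -1.97 and Dbp by 2.36, and Dbp spread from 8.59 to 11.22 within the knockout corn oil group. The part of these in the transporter values was not tested. In whole liver, fewer cells of a type and less RNA per cell cannot be told apart.

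**Figure D2:**
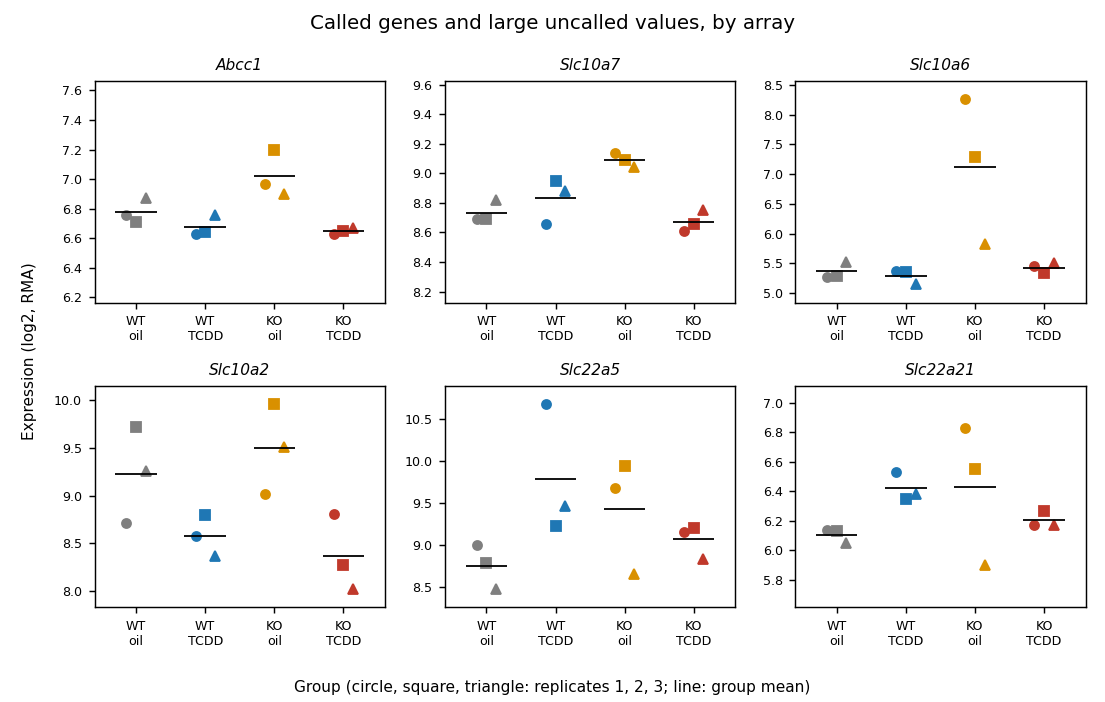
Log2 RMA expression (y axis) of 6 genes on each of the 12 arrays by group (x axis), with symbols for replicates and lines for group means. The knockout corn oil arrays were the highest for Abcc1, Slc10a7 and Slc10a6, and those of Slc10a6 ran from 5.83 to 8.26.

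The promoter window of Slc10a7 is shown because it is the called gene for which RefSeq promoter sequence was used. It spans chr8:78509078-78509377 of GRCm38.p6 on the plus strand, from 250 bases before to 50 bases after the annotated start, with the core letters of aryl hydrocarbon receptor binding, GCGTG, in capitals.
Slc10a7: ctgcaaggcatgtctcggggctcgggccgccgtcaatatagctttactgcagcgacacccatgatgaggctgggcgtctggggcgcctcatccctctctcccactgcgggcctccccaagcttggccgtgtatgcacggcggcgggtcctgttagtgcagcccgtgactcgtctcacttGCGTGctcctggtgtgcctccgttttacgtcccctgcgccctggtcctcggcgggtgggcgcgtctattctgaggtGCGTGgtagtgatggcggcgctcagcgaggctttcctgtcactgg
The core was found 2 times in it, beginning 71 bases before and 5 bases after the start (written as -71 and 5), and the antioxidant response letters TGACNNNGC were not found. Both motifs were searched on both strands with overlapping matches allowed. Across the 43 transporter genes matched to RefSeq promoters, 11 (25.6%) had GCGTG in at least 1 window, compared with 35.2% of 27025 genes, and 5 (11.6%) had TGACNNNGC, compared with 14% of genes. A match in these letters is a description of the sequence and not a binding site.

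On the uptake side the main bile salt carrier was steady. Slc10a1, which takes up conjugated bile salts together with sodium, read 13.12, 13.06 and 12.99 in wild-type corn oil, 13.05, 13.15 and 13.17 in wild-type TCDD, 12.67, 12.96 and 13.28 in knockout corn oil, and 13.14, 13.09 and 13.09 in knockout TCDD. All groups overlapped. The TCDD change was 0.07 (95% interval -0.22 to 0.35; adjusted p = 0.958) in the wild-type and 0.14 (-0.15 to 0.42; adjusted p = 0.593) in the knockout.

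The 4 organic anion carriers of the hepatocyte, Slco1a1, Slco1a4, Slco1b2 and Slco2b1, all had values below 0 under TCDD in both genotypes, and 0 of the 4 were called. Their median log2 change was -0.28 in wild-type liver and -0.36 in knockout liver. Slco1b2, the mouse relative of the human liver-specific carriers of statins and bilirubin, gave the clearest separation. It read 12.13, 11.82 and 11.77 in wild-type corn oil, 11.65, 11.70 and 11.78 in wild-type TCDD, 11.49, 11.89 and 12.16 in knockout corn oil, and 11.37, 11.43 and 11.24 in knockout TCDD. Every knockout TCDD array was below the other 9, as for 2.74% of all probe sets, and Slco1b2 was the only transporter gene of which this was true. Its change in the knockout was -0.50 ± 0.16 (SE; 95% interval -0.85 to -0.15; adjusted p = 0.0955). Among the fits that left out 1 array, it was called only without knockout corn oil replicate 1. That array was the lowest of its group, so leaving it out had to enlarge the fall.

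Slco2b1, a carrier of steroid sulphates, was highest in wild-type liver with corn oil. It read 10.54, 10.52 and 10.64 there, 10.10, 10.28 and 10.24 in wild-type TCDD, 9.76, 10.33 and 10.49 in knockout corn oil, and 10.17, 9.86 and 9.87 in knockout TCDD. The wild-type corn oil arrays stood above all others, a pattern shared by Slc22a13b and by 1.32% of all probe sets. The wild-type change was -0.36 ± 0.17 (SE; adjusted p = 0.695). Slco1a1, a broad carrier of bile salts and sulphated steroids, had group means of 12.02, 11.98, 11.93 and 11.78 in the order wild-type corn oil, wild-type TCDD, knockout corn oil and knockout TCDD, with changes of -0.04 and -0.15 (adjusted p = 0.981 and 0.612).

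Slco1a4, a carrier of cardiac glycosides and bile salts, varied more within groups than any other transporter gene. It read 9.64, 9.49 and 7.71 in wild-type corn oil, 7.79, 7.84 and 9.57 in wild-type TCDD, 8.28, 8.96 and 9.55 in knockout corn oil, and 8.15, 7.65 and 8.11 in knockout TCDD. High and low arrays occurred within 3 of the 4 groups, only the knockout groups did not overlap, and the pooled within-group SD of 0.816 exceeded that of 99.2% of probe sets. The knockout change of -0.96 ± 0.59 (SE; adjusted p = 0.39) therefore has an interval from -2.28 to 0.36, and the wild-type change was -0.55 ± 0.59 (SE; adjusted p = 0.917).

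Slc10a2, the sodium-dependent carrier of ileum and bile duct, had large values that were not called. It read 8.71, 9.72 and 9.26 in wild-type corn oil, 8.57, 8.80 and 8.37 in wild-type TCDD, 9.02, 9.96 and 9.51 in knockout corn oil, and 8.81, 8.27 and 8.02 in knockout TCDD. In the knockout the TCDD arrays were all below the corn oil arrays, with a change of -1.13 ± 0.30 (SE; adjusted p = 0.059). Among the fits that left out 1 array, this change was called only without knockout corn oil replicate 1, the lowest array of its group. The wild-type change was -0.65 ± 0.30 (SE; adjusted p = 0.696), with overlapping arrays. The 4 measured cholangiocyte markers, of which 0 were called, averaged 6.18 to 6.42, 6.13 to 6.26, 6.16 to 6.35 and 6.03 to 6.32 in the same group order. Their part in the Slc10a2 values was not tested. Slc10a5, an orphan member found in liver and kidney, was 11.02 ± 0.16 in wild-type and 10.32 ± 0.51 in knockout corn oil (SD, n = 3), a difference of -0.70 ± 0.23 (SE; adjusted p = 0.138) without overlap of arrays.

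Slc22a5, which takes up carnitine for fatty acid oxidation, had the largest wild-type value of the set. It read 9.0, 8.79 and 8.48 in wild-type corn oil and 10.68, 9.23 and 9.47 in wild-type TCDD, then 9.68, 9.94 and 8.66 in knockout corn oil and 9.16, 9.21 and 8.84 in knockout TCDD. The wild-type groups did not overlap, but replicate 1 was far above the other TCDD arrays, and the change of 1.04 ± 0.40 (SE; 2.05-fold) was not called (adjusted p = 0.601). In the knockout it was -0.36 ± 0.40 (SE; adjusted p = 0.659), and the interaction was -1.39 ± 0.56 (SE; adjusted p = 0.284). The related mouse carnitine carrier Slc22a21 showed 0.31 ± 0.19 and -0.22 ± 0.19 (SE; adjusted p = 0.789 and 0.542), with 6.83, 6.55 and 5.90 in knockout corn oil. Without knockout corn oil replicate 3 its interaction of -0.80 was called (adjusted p = 0.0272). That array was the lowest of its group, so leaving it out had to enlarge the interaction, and the call adds no support.

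The 7 organic anion and urate carriers of the Slc22a family, among them the renal carriers Slc22a6 and Slc22a8 and the urate carrier Slc22a12, moved little. Their changes ran from -0.07 to 0.13 in the wild-type and from -0.06 to 0.20 in the knockout, with 0 called. The 9 Slco genes outside the hepatocyte group, which include the prostaglandin carrier Slco2a1, lay between -0.16 and 0.11 in the wild-type and between -0.19 and 0.09 in the knockout, again with 0 called. Under TCDD in the knockout, 1 of the 25 transporter genes at or below the median brightness was called (Abcc1, 4%). Of the 30 above it 1 was called (Slc10a7, 3.33%), against 5.58% of all probe sets.

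On the export side the sterol pumps gave the largest wild-type values. Abcg5 and Abcg8 form a dimer that secretes cholesterol into bile. Abcg5 read 10.63, 10.26 and 9.73 in wild-type corn oil, 10.94, 10.92 and 11.10 in wild-type TCDD, 10.28, 10.98 and 11.06 in knockout corn oil, and 10.76, 11.16 and 11.03 in knockout TCDD. Abcg8 read 9.98, 9.51 and 9.09, then 10.41, 10.31 and 10.49, then 9.19, 9.88 and 10.42, then 10.25, 10.55 and 10.60 in the same order. For both genes the wild-type TCDD arrays lay above the wild-type corn oil arrays, and in knockout liver TCDD and corn oil arrays overlapped. The wild-type changes were 0.78 ± 0.25 for Abcg5 and 0.88 ± 0.29 for Abcg8 (SE), corresponding to 1.72-fold and 1.84-fold, and were not called (adjusted p = 0.515 and 0.525). In the knockout they were 0.21 and 0.64 (adjusted p = 0.681 and 0.233), and the interactions of -0.57 and -0.24 did not pass (adjusted p = 0.497 and 0.848).

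The shared promoter of this pair is shown because both genes separated the wild-type groups, and the pair was chosen after its values were seen. RefSeq places their starts 110 bases apart on opposite strands. A window of Abcg8, chr17:84682871-84683170 of GRCm38.p6 on the plus strand, has the bases between both starts in capitals.
Abcg8: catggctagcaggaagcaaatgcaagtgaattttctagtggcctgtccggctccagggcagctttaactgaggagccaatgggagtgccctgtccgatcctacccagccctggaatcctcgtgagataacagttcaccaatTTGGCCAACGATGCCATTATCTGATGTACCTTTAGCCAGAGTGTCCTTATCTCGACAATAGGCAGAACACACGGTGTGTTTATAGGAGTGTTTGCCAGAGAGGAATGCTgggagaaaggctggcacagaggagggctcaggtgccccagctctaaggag
Neither GCGTG nor TGACNNNGC occurred in it. RefSeq holds a second window for another start of Abcg8, in which GCGTG occurred 2 times.

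The other canalicular pumps gave 0 calls. Abcb11, the bile salt export pump, read 11.98, 11.88 and 11.77 in wild-type corn oil, 12.07, 11.86 and 11.60 in wild-type TCDD, 11.25, 11.50 and 11.72 in knockout corn oil, and 11.98, 11.83 and 11.83 in knockout TCDD. Knockout corn oil was the lowest group, below wild-type corn oil without overlap (-0.39 ± 0.14, SE; adjusted p = 0.171), and the TCDD change in the knockout was 0.39 ± 0.14 (SE; adjusted p = 0.14). In the wild-type it was -0.03 (95% interval -0.35 to 0.28; adjusted p = 0.984).

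Abcc2, the pump for bilirubin glucuronides, read 12.17, 12.08 and 11.63 in wild-type corn oil, 12.22, 12.09 and 12.22 in wild-type TCDD, 11.19, 11.70 and 12.13 in knockout corn oil, and 12.05, 12.05 and 11.93 in knockout TCDD. Its changes were 0.22 and 0.34 (adjusted p = 0.906 and 0.396). Abcg2 had group means of 9.06, 8.96, 8.73 and 8.80 and changes of -0.10 and 0.07 (adjusted p = 0.924 and 0.777). Slc47a1 had means of 10.41, 10.23, 9.89 and 10.10 and changes of -0.18 and 0.21 (adjusted p = 0.914 and 0.567). Of the 8 canalicular genes 7 had a value above 0 under TCDD in the knockout and 6 had a value below 0 in the knockout with corn oil. Those comparisons share the knockout corn oil arrays.

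**Figure D3:**
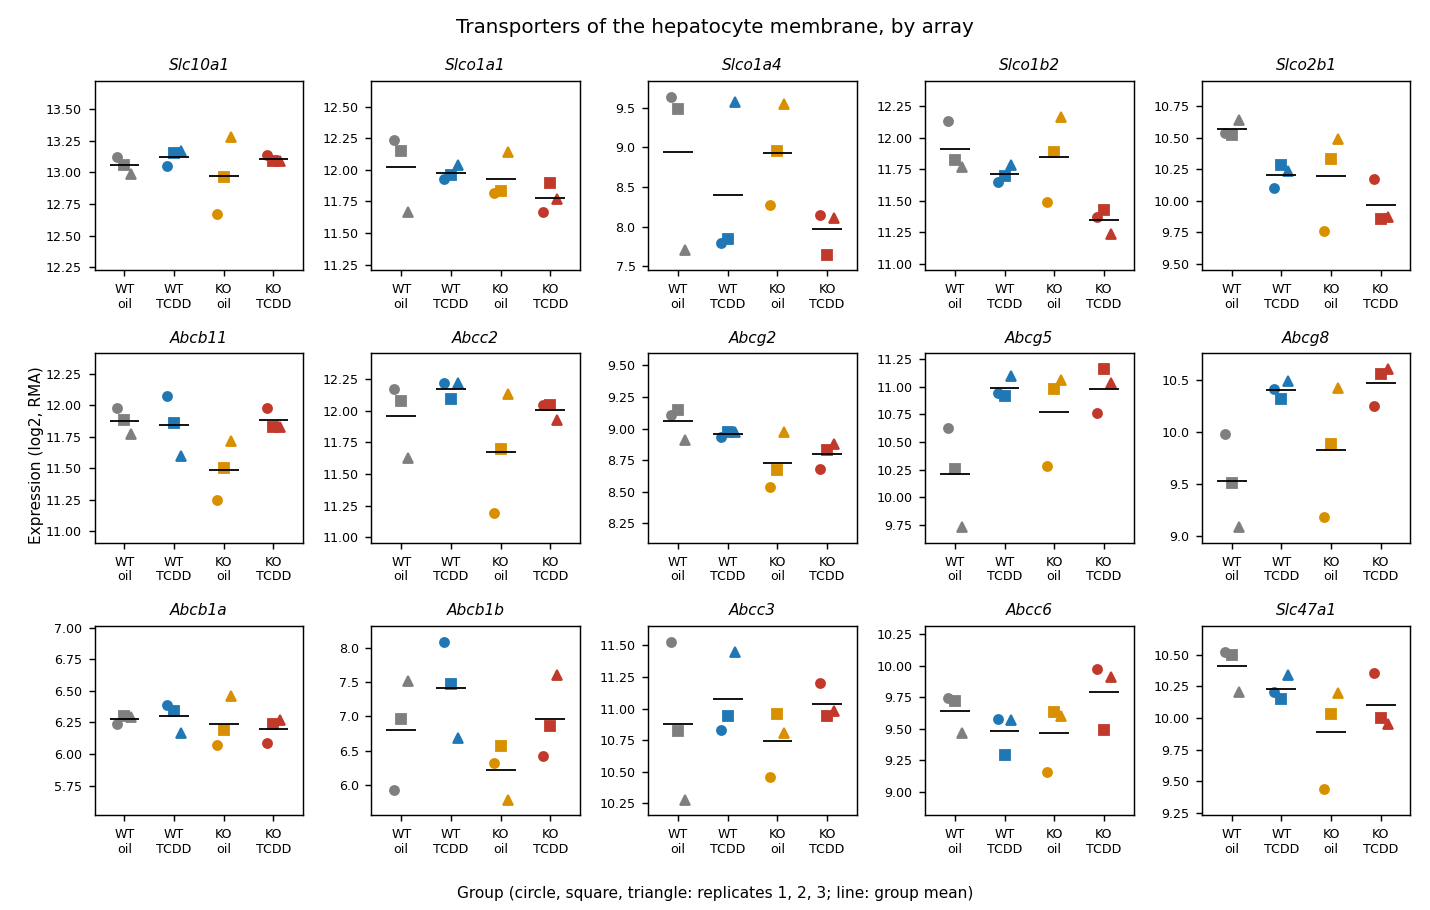
Log2 RMA expression (y axis) of 15 transporters of the hepatocyte membrane on each array by group (x axis), each panel with its own range, symbols for replicates and lines for group means. Slco1b2 was lowest in knockout TCDD, at 11.24 to 11.43, and Slco1a4 held values from 7.71 to 9.64 within wild-type corn oil alone.

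Among the P-glycoproteins, Abcb1a stayed near 6.25 throughout, with changes of 0.02 and -0.04 (adjusted p = 0.986 and 0.873). Abcb1b, the form that rises in stressed or regenerating liver, read 5.93, 6.96 and 7.51 in wild-type corn oil, 8.09, 7.48 and 6.69 in wild-type TCDD, 6.32, 6.57 and 5.79 in knockout corn oil, and 6.43, 6.86 and 7.60 in knockout TCDD. Groups overlapped for each genotype, and the changes of 0.62 ± 0.47 and 0.74 ± 0.47 (SE) were not called (adjusted p = 0.844 and 0.404).

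Abcc3, which returns glucuronides to the blood, read 11.53, 10.82 and 10.28 in wild-type corn oil, 10.83, 10.94 and 11.45 in wild-type TCDD, 10.46, 10.96 and 10.81 in knockout corn oil, and 11.20, 10.94 and 10.98 in knockout TCDD. The wild-type corn oil arrays alone spanned more than all group means. Its changes were 0.20 (95% interval -0.43 to 0.83; adjusted p = 0.946) and 0.30 (-0.33 to 0.93; adjusted p = 0.6). Abcc6, a liver ABC protein needed for release of ATP and so for plasma pyrophosphate, had means of 9.64, 9.48, 9.46 and 9.79 and changes of -0.16 and 0.33 (adjusted p = 0.907 and 0.285). Among the organelle members of Abcb, the mitochondrial Abcb8 had nearly equal changes of 0.31 ± 0.12 and 0.33 ± 0.12 (SE; adjusted p = 0.616 and 0.152).

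The genotypes were compared under each treatment as well. With corn oil, 13 of the 55 genes (23.6%) had groups that did not overlap, 6 higher and 7 lower in the knockout, against 21.8% of all probe sets (13.5% higher and 8.36% lower). With TCDD, 10 of 55 (18.2%) did not overlap and all 10 were lower in the knockout, against 18.3% of all probe sets in either direction, 11.7% lower and 6.63% higher. They were Abcb6, Abcc10, Abcc2, Abcg2, Slc22a18, Slc22a21, Slc22a5, Slco1a1, Slco1b2 and Slco2a1, with 0 called. The differences among the 55 ran from -0.72 (Slc22a5) to 0.31 (Abcc6 and Abcc9). Under TCDD the wild-type groups did not overlap for 7 of 55 (12.7%), 5 higher and 2 lower, against 13.7% of all probe sets (7.74% higher and 6% lower). The knockout groups did not overlap for 13 of 55 (23.6%), 5 higher and 8 lower, against 23.5% (7.92% higher and 15.6% lower). Taken over both directions, each share was close to that of the whole array. By direction the 10 lower and 0 higher genes with TCDD, and the 7 lower and 6 higher with corn oil, were split differently from the array, and those splits were not tested.

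Leaving out knockout corn oil replicate 3 changed the picture with corn oil. In that fit 7 transporter genes were called, of which Slc10a6 (2.41), Slc22a21 (0.58) and Slco3a1 (0.45) were higher and Slc22a13b (-1.07), Slc10a5 (-0.96), Abcb6 (-0.55) and Abcg2 (-0.45) lower in the knockout, with adjusted p-values from 0.0026 to 0.0412. For each of these 7 genes replicate 3 was the knockout corn oil array nearest to the wild-type corn oil mean. Leaving it out had to enlarge the differences, so these calls add no support. Over all probe sets that fit called 1624 in place of 457. Leaving out any of the other 5 corn oil arrays gave 0 called transporter genes.

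**Figure D4:**
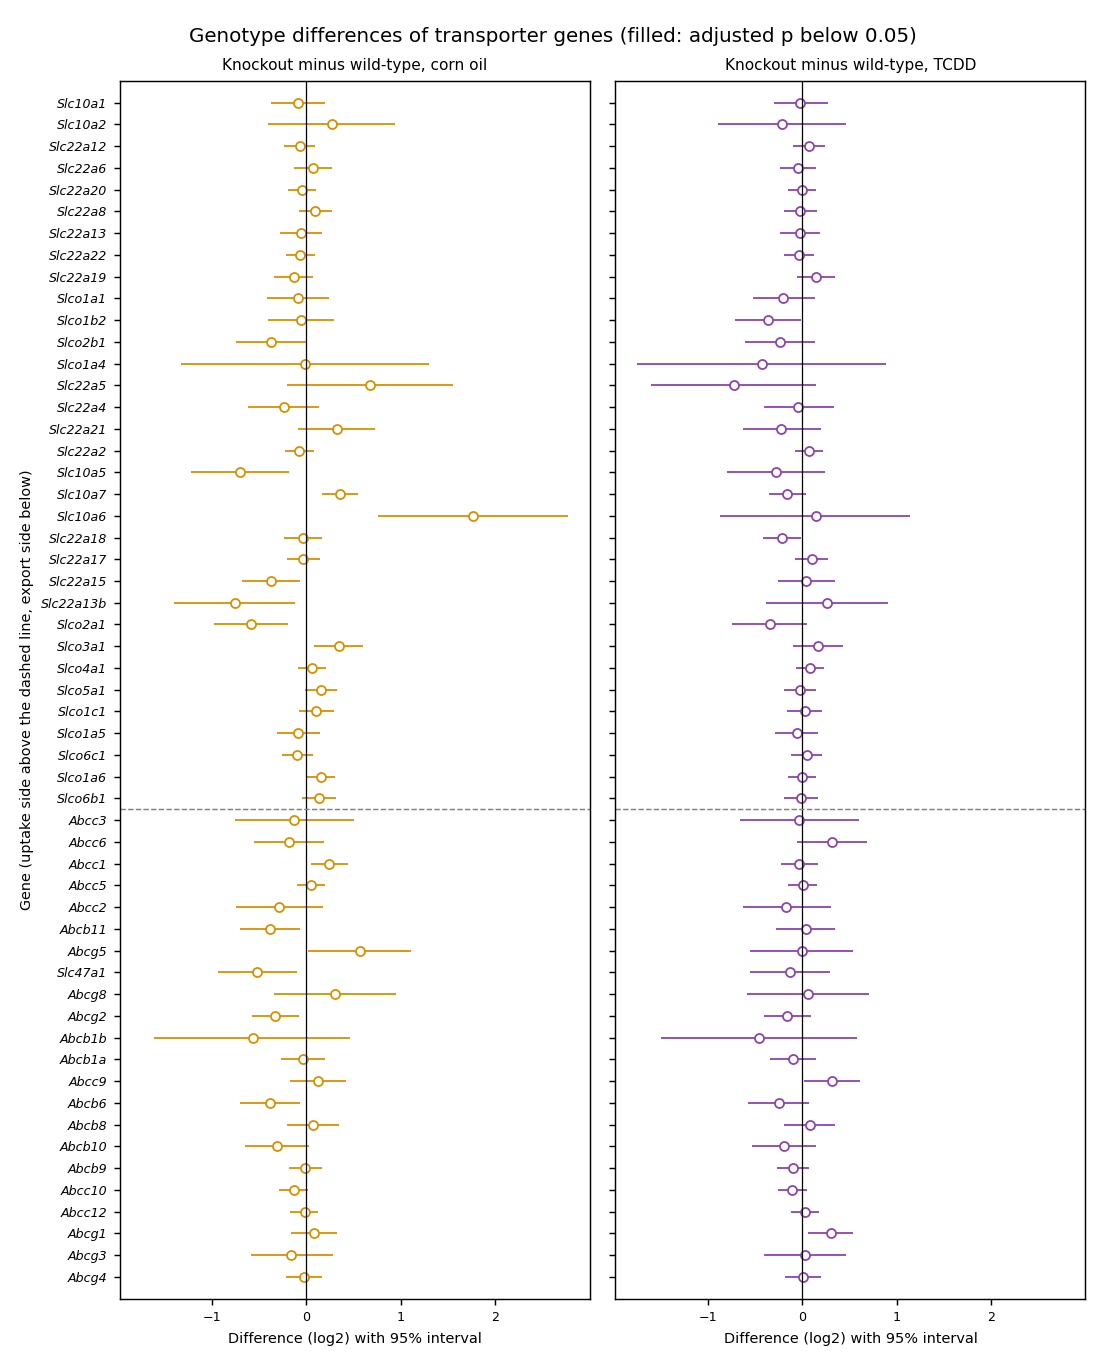
Log2 difference of knockout minus wild-type (x axis) for the 55 transporter genes (y axis) with corn oil and with TCDD, with 95% intervals of limma from 12 arrays. No point is filled, since 0 genes passed an adjusted p of 0.05, and Slc10a6 with corn oil had the largest difference (1.76).

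The regulators and partners of these transporters included genes that passed the test under TCDD. Of 14 measured nuclear receptors and other regulators, a list written with earlier results of these data known, 3 were called higher and 0 lower under TCDD in the knockout (2.21% and 3.37% of all probe sets). In the wild-type 1 was called higher and 0 lower (0.116% of all probe sets higher). Nfe2l2, which encodes the oxidative stress factor NRF2, rose by 1.02 ± 0.11 in the wild-type (SE; adjusted p = 0.00938) and by 1.94 ± 0.11 in the knockout (SE; adjusted p = 5.87e-05). Klb, the co-receptor through which bile acid synthesis is restrained, rose by 2.65 ± 0.48 (SE; adjusted p = 0.0137), and the nuclear receptor gene Nr5a2 by 0.78 ± 0.10 (SE; adjusted p = 0.00272), both in the knockout. Their wild-type values of 1.24 and 0.18 were also above 0 but were not called (limma adjusted p = 0.61 and 0.766). The interactions of Nfe2l2, Klb and Nr5a2 (0.92, 1.42 and 0.60) did not pass (limma adjusted p = 0.0688, 0.369 and 0.102). Ahr, the gene of the dioxin receptor itself, read 9.86 to 11.12 in knockout corn oil and 8.32 to 9.70 in knockout TCDD, a value of -1.45 that was not called (adjusted p = 0.0522). Nr1i3, the drug-sensing receptor CAR, had values of 1.45 and 1.64 that were not called (adjusted p = 0.632 and 0.133), and those of the bile salt receptor gene Nr1h4 were 0.03 and 0.10.

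Of 18 measured genes for other carriers, membrane anchors and vesicle traffic, 1 was called higher and 2 lower under TCDD in the knockout (2.21% and 3.37% of all probe sets), and 0 in the wild-type. The water channel gene Aqp8 rose by 2.03 ± 0.33 (SE; adjusted p = 0.00925). Slc9a3r1, a scaffold that anchors apical carriers, fell by 0.93 ± 0.17 (SE; adjusted p = 0.0148), and Rab11a, a GTPase of recycling vesicles, fell by 0.32 ± 0.07 (SE; adjusted p = 0.0325). In the order wild-type corn oil, wild-type TCDD, knockout corn oil and knockout TCDD, the means were 10.05, 9.72, 8.62 and 10.65 for Aqp8. They were 10.93, 10.68, 11.54 and 10.60 for Slc9a3r1 and 8.88, 8.83, 9.04 and 8.73 for Rab11a. Knockout corn oil was thus the lowest group for Aqp8 and the highest for Slc9a3r1 and Rab11a. With corn oil, 1 of the 18 was called between genotypes, against 0.724% of all probe sets lower and 1.23% higher in the knockout. It was Atp8b1, the canalicular phospholipid flippase, lower in the knockout with a difference of -0.47 ± 0.09 (log2, SE; limma adjusted p = 0.042). The basolateral bile salt exporter genes Slc51a and Slc51b, which are weak in mouse liver, had TCDD values of 0.04 and 0.01 in wild-type liver and 0.00 and -0.60 in knockout liver, with 0 called.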

How the data were processed

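Liver RNA of 12 mice in 4 groups of 3 was hybridised to Affymetrix Mouse Exon 1.0 ST arrays, per the labels. The authors deposited log2 expression values, 1 per probe set and array, made with RMA in Affymetrix Expression Console with the build mm9, per the submitters' processing notes. Software versions and the probe set level were not stated in those notes. Array medians were 6.91 to 7.00, and the values were used as deposited; 0 columns came from other series. The number of arrays limits the precision.

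With limma 3.58.1 in R 4.3.3, 1 linear model with a mean per group took in all 23332 probe sets and 12 arrays, with 8 residual and 2.19 prior degrees of freedom. P-values were adjusted by Benjamini-Hochberg over all probe sets within each of 5 comparisons. P-values measure the spread between these arrays. SE stands for the standard error of a log2 difference from that model. Genes were named through the supplied platform annotation (14996 probe sets with 1 symbol, 1019 with several, 7317 with none), and all 55 transporter genes matched RefSeq of GRCm38.p6 by gene number. Named with values were called genes, a fixed list of hepatocyte membrane transporters, and others chosen after their values were seen (Slc10a2, Slc10a5, Slc10a6, Slc22a5, Slc22a21, Abcb8 and uncalled partner genes). Members and lists were chosen with earlier results of these data known. Promoter sequences are from RefSeq. The fit was checked on simulated data with known changes. Alternatives were a replicate block, robust and trended empirical Bayes, fewer groups, quantile normalization, median centring, dropping the dimmest 25% of probe sets, an adjusted p below 0.01, another probe set per gene, leaving out each array and, chosen after seeing the data, another control.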

Additional observations from a re-analysis of the deposited data

How the results depend on the processing

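The count of 0 called transporter genes also came out in all 14 alternative settings for TCDD in the wild-type and in all 14 for knockout against wild-type under TCDD, of which the stricter adjusted p and the other choice of probe set could not raise it. For TCDD in the knockout the count of 2 became 4 when the dimmest 25% of probe sets were left out (Abcc1, Slc10a2, Slc10a6 and Slc10a7, all lower), 1 with median centring, and 0 with quantile normalization again, with only the arrays of the compared groups, at an adjusted p below 0.01 and against wild-type corn oil. Slc10a6 passed this brightness filter only through knockout corn oil (mean 7.13 against 5.29 to 5.43 in the other groups), so its added calls support nothing. The count ranged from 0 to 5 when 1 array was left out, 5 being without knockout corn oil replicate 3. Calls among all probe sets moved too, from 1303 in the main fit to 1730 without the dimmest 25% and 2004 without that replicate. They were 1175 with median centring, 1122 with quantile normalization and 184 with only the compared groups. At an adjusted p below 0.01 they were 293, and against wild-type corn oil 533. For corn oil the count of 0 became 2 without the dimmest probe sets (Slc10a6 and Slc10a7, both higher), where fewer probe sets were tested and 819 were called. With 1 array left out the count ranged from 0 to 7. For the interaction it ranged from 0 to 2. Without that same replicate 3, 7 and 2 were called, where calls among all probe sets rose from 457 to 1624 and from 37 to 546. Apart from this construction the cause was not tested.

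Replicate numbers did not pair the arrays, since deviations of same-numbered arrays correlated at -0.208 to 0.114 over 18 pairs and 2 of 12 arrays correlated best with their own number. With the replicate number as a block the count for TCDD in the knockout was 1 (Slc10a7, adjusted p = 0.0456, while Abcc1 lost its call at 0.0743), and 0 in the other 4 comparisons. No gene has several probe sets, so the choice of probe set changed nothing. Of the 30 values recomputed for Abcc1 and Slc10a7, 20 lost the call and 0 changed sign. With 3 arrays a group, dim genes near the floor and very bright genes are the least resolved.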
